A study of Homo sapiens with 32 samples.

Results

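Genes of cholesterol synthesis, its control and its transport were followed in Caco-2 cells, a human colon adenocarcinoma line, because INSIG1 mRNA was nearly absent in the HIF1A-null line of the study. The 32 members were listed by their known role in the pathway, and INSIG1 was in addition the gene whose level in that line prompted the list. All 32 had counts among the 60107 rows of the table. Of these, 31 passed the filter on low counts and were tested with 12849 genes in all; ABCG1, a cholesterol exporter with 19 counts over 32 libraries, did not pass.

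The HIF1A-null line is labelled cl.21 and is 1 clone picked after lentiviral delivery of an inducible Cas9, a guide against HIF1A and drug selection. The control line, e.v., carries the same Cas9 and a vector without guide, and WT cells carry neither. Each line was grown as a HoxBan co-culture over agar with the gut bacterium Faecalibacterium prausnitzii, as a HoxBan monoculture over agar without bacteria, and in 2D, on a culture dish. HoxBan is a system in which human cells on a coverslip are turned upside down onto agar that can hold bacteria without oxygen. Each group held 3 libraries, WT in 2D held 4, and 4 further WT conditions held 1 library each and entered no test. Each library was made with a 3′ mRNA kit and held 4144373 to 6686797 counts. Levels are CPM, counts per 1000000 after scaling by TMM, and, as reads were not tagged by molecule, intervals on counts cover counting error alone. No source says that libraries came from separate cultures, so p-values measure the spread between libraries. In bulk RNA, fewer cells of a kind and less RNA per cell cannot be told apart.

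Cells sense sterols in the membrane of the endoplasmic reticulum. When sterols are plentiful, INSIG1 and INSIG2 hold SCAP, the escort of the SREBP transcription factors, in that membrane. When sterols are scarce, SCAP carries SREBP2 (gene SREBF2) and SREBP1 (SREBF1) to the Golgi, where they are cut, and the freed part switches on the enzymes of cholesterol synthesis and INSIG1 itself. The comparison of lines asks whether the other members differed where INSIG1 was nearly gone.

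The stretch of 250 bases before the start in RefSeq is shown for INSIG1, the member that separated the lines most, and for LSS and STARD4. Among the members, these were the synthesis enzyme and the sterol carrier that moved furthest, in opposite directions, between monoculture and 2D. Sequences are from RefSeq on GRCh38.p14, read 5′ to 3′ on the strand of the gene, and capitals mark CCAAT and ACGTG on either strand. CCAAT is the box bound by NF-Y, a partner of SREBP, and ACGTG is the core of the hypoxia response element.
INSIG1, chr7:155297628-155297877, plus strand: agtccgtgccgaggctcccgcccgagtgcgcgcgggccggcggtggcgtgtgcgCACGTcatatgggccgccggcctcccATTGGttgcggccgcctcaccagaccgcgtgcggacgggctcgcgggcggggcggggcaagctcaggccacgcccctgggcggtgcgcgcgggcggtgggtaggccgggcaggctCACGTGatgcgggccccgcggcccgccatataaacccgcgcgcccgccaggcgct
LSS, chr21:46228775-46229024, minus strand: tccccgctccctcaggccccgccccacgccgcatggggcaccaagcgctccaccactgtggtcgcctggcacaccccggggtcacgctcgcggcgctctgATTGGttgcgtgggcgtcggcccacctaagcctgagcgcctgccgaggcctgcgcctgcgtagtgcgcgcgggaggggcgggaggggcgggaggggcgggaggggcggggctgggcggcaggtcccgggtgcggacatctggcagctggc
STARD4, chr5:111512536-111512785, minus strand: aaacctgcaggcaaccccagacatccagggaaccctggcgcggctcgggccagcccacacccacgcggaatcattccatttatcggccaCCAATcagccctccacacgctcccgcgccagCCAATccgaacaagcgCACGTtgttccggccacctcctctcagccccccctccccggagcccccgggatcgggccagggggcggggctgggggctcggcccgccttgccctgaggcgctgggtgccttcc
INSIG1 had 1 CCAAT and ACGTG at 2 places, LSS had 1 CCAAT and no ACGTG, and STARD4 had 2 CCAAT and 1 ACGTG. Of the members, 27 had an entry, and ACAT2, FDFT1, SQLE, ABCG1 and SOAT2 did not. CCAAT was found for 19 of these 27 members and for 13 of the 15 synthesis enzymes, against 32.0% of 35116 windows of the same length. Here and below, a member counts once if any window listed for it matched, while the share of all counts every window. ACGTG lay in 7 of 27, against 18.5% of all windows. TCACNCCAC, a form of the SREBP site, lay on either strand in 1 of 27, that of SREBF2, against 0.883% of all windows. A match is a run of letters and not a tested site, and where 2 forms overlap on opposite strands they were counted as 1 place. The RefSeq start of all 3 genes lies inside the gene as GENCODE draws it, so the 3′ end of each window, with the second ACGTG place of INSIG1, falls within the GENCODE gene.

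INSIG1 (ENSG00000186480, chr7:155297776-155310235, GRCh38, plus strand) gave 0, 2.32 and 0 CPM in cl.21 in co-culture, 0.64, 1.39 and 0.75 CPM in monoculture, and 0.61, 0.91 and 1.37 CPM in 2D. It gave 39.8, 44.8 and 37.6 CPM in e.v. in co-culture, 23.8, 35.9 and 42.7 CPM in monoculture, and 22.3, 31.5 and 27.7 CPM in 2D. In WT it gave 113, 120 and 123 CPM in co-culture, 106, 140 and 130 CPM in monoculture, and 135, 96.0, 91.7 and 138 CPM in 2D. The lines did not overlap in any culture, with cl.21 lowest, e.v. between and WT highest. INSIG1 was chosen by its low level in cl.21, so the cl.21 values are a description without a test. The other members were listed for their role in the pathway, with earlier results of these data known.

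Over the 3 cultures INSIG1 averaged 0.888 ± 0.731 CPM in cl.21 (SD, n = 9), 34.0 ± 8.14 CPM in e.v. (n = 9) and 119 ± 17.3 CPM in WT (n = 10). The mean was 38.3-fold lower in cl.21 than in e.v. and 134-fold lower than in WT. By culture the cl.21 mean was 52.7-fold lower than e.v. in co-culture, 36.8-fold lower in monoculture and 28.2-fold lower in 2D. The cl.21 libraries held 43 INSIG1 counts in all (exact 95% Poisson interval 31.1 to 57.9), against 1446 in e.v. and 5936 in WT. In co-culture all 9 INSIG1 counts of cl.21 came from library 21, and the 2 libraries at 0 allow up to 0.799 and 0.746 CPM (3 counts each). Without library 21 the co-culture level of cl.21 is therefore only an upper limit.

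INSIG1 was also lower in e.v. than in WT, a comparison that the choice of the gene did not rest on. The e.v. mean was 28.5% of the WT mean over 3 cultures, and 34.3%, 27.3% and 23.6% in co-culture, monoculture and 2D. The log2 fold change was -1.84 ± 0.16 (SE, adjusted p = 1.73e-08). INSIG1 did not pass the test between cultures. Co-culture minus monoculture was 0.01 (95% interval -0.65 to 0.68, adjusted p = 0.989), and monoculture minus 2D was 0.10 (95% interval -0.42 to 0.62, adjusted p = 0.782). These means over 3 lines include cl.21, where the same changes had an SE of 0.75 and 0.63 at few counts. By line, co-culture minus monoculture was 0.27 ± 0.28 in e.v. and -0.06 ± 0.27 in WT (SE). Monoculture minus 2D was 0.31 ± 0.28 in e.v. and 0.10 ± 0.25 in WT (SE). The single WT libraries gave INSIG1 133.8 CPM in Poop + YCFAinul, 100.2 CPM in Poop + YCFAmuc, 135.0 CPM in monoculture YCFAinul and 119.9 CPM in monoculture YCFAmuc, all within the range of the other WT libraries.

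**Figure D1:**
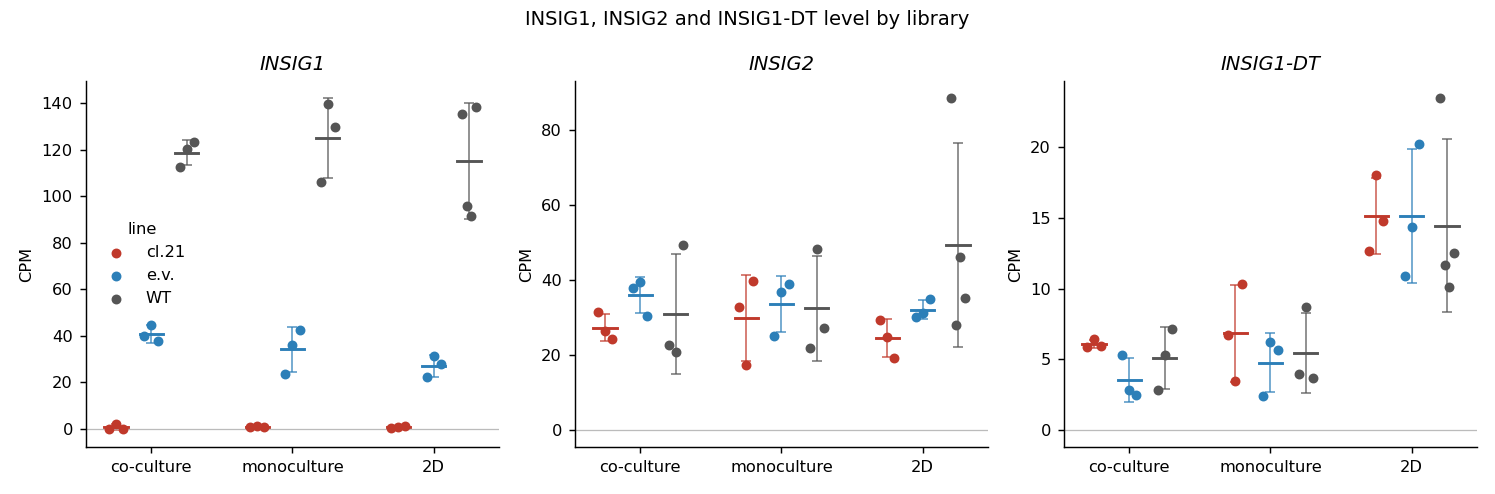
Level in CPM of INSIG1, INSIG2 and INSIG1-DT by culture (x axis) in cl.21, e.v. and WT. Points are libraries, bars are means and error bars are SD (n = 3, and 4 for WT in 2D). INSIG1 lay between 0 and 2.32 CPM in every cl.21 library and between 91.7 and 140 CPM in every WT library, while INSIG2 and INSIG1-DT overlapped between all 3 lines in monoculture.

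The nearest neighbours of INSIG1 with enough counts to test were present in cl.21. INSIG1-DT (ENSG00000273117, chr7:155295918-155297541, minus strand), a long non-coding RNA that lies just upstream on the other strand and does not overlap INSIG1, gave 5.86, 6.45 and 5.97 CPM in cl.21 in co-culture, against 5.29, 2.85 and 2.48 CPM in e.v. In 2D INSIG1-DT gave 12.6, 18.0 and 14.8 CPM in cl.21, 10.9, 14.4 and 20.2 CPM in e.v. and 23.5, 11.7, 10.1 and 12.5 CPM in WT. Its log2 fold change was 0.45 ± 0.25 for cl.21 minus e.v. (SE, adjusted p = 0.305) and 0.24 ± 0.24 for cl.21 minus WT (adjusted p = 0.550). INSIG1-DT was lower in monoculture than in 2D (log2 fold change -1.42, adjusted p = 1.57e-05), where INSIG1 did not pass the test. RBM33, the fifth gene downstream, gave -0.13 (adjusted p = 0.709) for cl.21 minus e.v. and -0.21 (adjusted p = 0.370) for cl.21 minus WT.

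Of the other genes within 5 on either side of INSIG1 that had counts, PAXIP1-DT and RBM33-DT were tested. PAXIP1-DT gave -0.26 (adjusted p = 0.414) for cl.21 minus e.v. and was lower for cl.21 minus WT at -0.49 (adjusted p = 0.0413). RBM33-DT gave -0.16 (adjusted p = 0.727) and -0.19 (adjusted p = 0.578) for the same comparisons. EN2 had 94 counts over 32 libraries, and HTR5A, BLACE, CNPY1 and a pair of non-coding RNAs had 1 count each.

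INSIG2, the other retention protein, did not pass the test between any pair of lines. It averaged 27.3 ± 6.94 CPM in cl.21 (SD, n = 9), 33.9 ± 4.90 CPM in e.v. (n = 9) and 38.8 ± 20.7 CPM in WT (n = 10). Its log2 fold change was -0.30 for cl.21 minus e.v. (95% interval -0.74 to 0.13, adjusted p = 0.455) and -0.42 for cl.21 minus WT (95% interval -0.85 to 0.00, adjusted p = 0.181). One WT library in 2D, library 5, stood high for INSIG2 at 88.6 CPM, against 27.9 to 46.0 CPM in the other 3. In 2D INSIG2 gave 29.4, 24.8 and 19.3 CPM in cl.21 and 30.3, 31.2 and 34.9 CPM in e.v., without overlap, and it did not pass within that culture. SREBF2, SREBF1 and SCAP did not pass either. Their log2 fold changes for cl.21 minus e.v. were -0.07, 0.07 and -0.06, and for cl.21 minus WT they were -0.16, 0.09 and 0.13.

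Most synthesis enzymes lay close together in cl.21 and e.v. Of the 30 members tested other than INSIG1, 2 passed for cl.21 minus e.v. over 3 cultures (adjusted p under 0.05, 6.67%), where 8.75% of all genes tested passed: HSD17B7 was higher (4.5% of all genes were) and IDI1 was lower (4.25% of all genes were) in cl.21. The 18 synthesis enzymes had a median log2 fold change of -0.09 and a range of -0.44 to 0.43, beside a median of 0.01 over all genes, and 13 of 18 were below 0. For 15 of the 18 the 95% interval lay within a 1.5-fold change in either direction, and MVK, IDI1 and HSD17B7 were the exceptions.

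IDI1, which interconverts the isopentenyl and dimethylallyl units from which squalene is built, gave 140, 127 and 132 CPM in cl.21 in co-culture, against 225, 208 and 177 CPM in e.v. and 183, 179 and 193 CPM in WT. In monoculture IDI1 gave 140, 160 and 158 CPM in cl.21, 210, 186 and 145 CPM in e.v. and 193, 191 and 201 CPM in WT. In 2D it gave 168, 150 and 157 CPM in cl.21, 197, 257 and 217 CPM in e.v. and 241, 185, 165 and 203 CPM in WT. The cl.21 libraries lay below all others in co-culture, and overlapped with e.v. in monoculture and with WT in 2D. The log2 fold change was -0.44 ± 0.08 for cl.21 minus e.v. (SE, adjusted p = 0.000840) and -0.38 ± 0.08 for cl.21 minus WT (adjusted p = 0.00236). Both IDI1 calls held in every alternative run.

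HSD17B7, a 3-keto-sterol reductase late in the pathway, gave 29.3, 33.3 and 25.6 CPM in cl.21 in co-culture, against 18.2, 24.4 and 14.1 CPM in e.v. and 23.7, 21.1 and 18.3 CPM in WT. In monoculture HSD17B7 gave 23.1, 17.3 and 29.1 CPM in cl.21, 12.5, 21.8 and 20.8 CPM in e.v. and 15.3, 13.2 and 15.7 CPM in WT. In 2D it gave 23.4, 21.3 and 25.1 CPM in cl.21, 18.8, 18.2 and 20.2 CPM in e.v. and 24.2, 16.9, 15.8 and 19.6 CPM in WT. The cl.21 libraries were above e.v. without overlap in co-culture and 2D. The log2 fold change was 0.43 ± 0.13 for cl.21 minus e.v. (SE, adjusted p = 0.0350) and 0.48 ± 0.13 for cl.21 minus WT (adjusted p = 0.0112). The call against e.v. was lost in 12 alternatives, with adjusted p up to 0.0963, and the direction did not change.

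**Figure D2:**
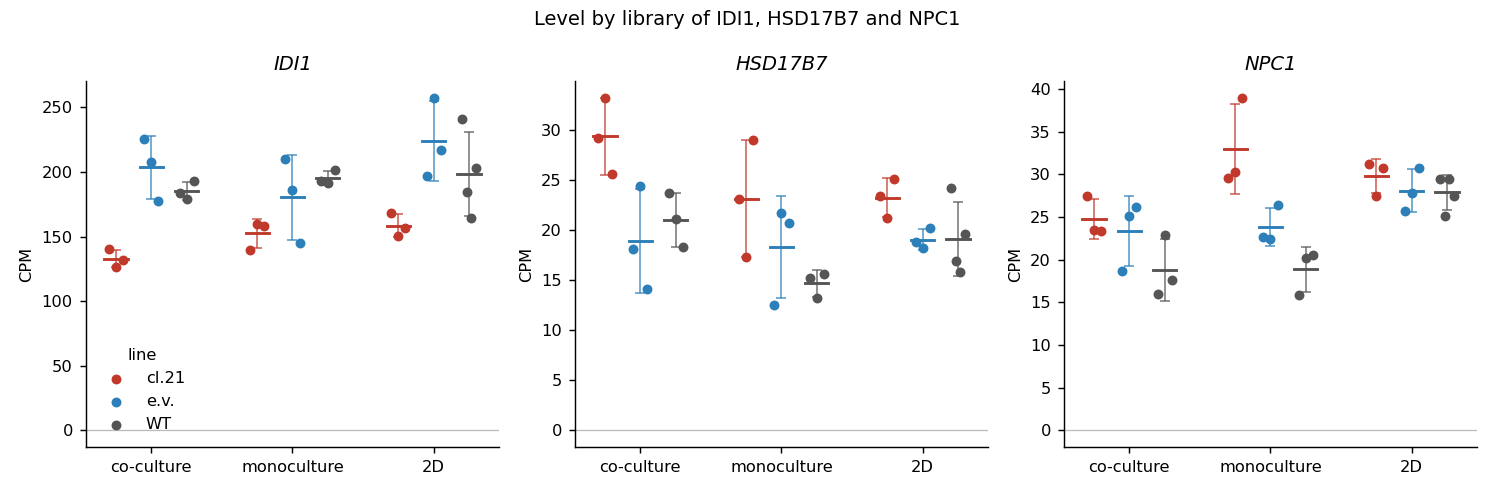
Level in CPM of IDI1, HSD17B7 and NPC1 by culture (x axis) in cl.21, e.v. and WT, with libraries as points, means as bars and SD as error bars (n = 3, and 4 for WT in 2D). IDI1 averaged 148 CPM in cl.21 against 203 CPM in e.v., and HSD17B7 averaged 25.3 CPM against 18.8 CPM.

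HMGCS1, SQLE and DHCR7, from the start, middle and end of the pathway, did not pass between cl.21 and either other line. HMGCS1, which makes HMG-CoA and was the most abundant member, averaged 527 ± 54.9 CPM in cl.21 (SD, n = 9), 561 ± 59.2 CPM in e.v. (n = 9) and 465 ± 43.7 CPM in WT (n = 10). Its log2 fold change was -0.08 for cl.21 minus e.v. (95% interval -0.23 to 0.07) and 0.17 for cl.21 minus WT (95% interval 0.03 to 0.32, adjusted p = 0.103). SQLE, the squalene epoxidase, averaged 202 ± 13.3 CPM in cl.21, 209 ± 28.5 CPM in e.v. and 188 ± 15.5 CPM in WT. Its log2 fold change was -0.04 for cl.21 minus e.v. (95% interval -0.19 to 0.12) and 0.10 for cl.21 minus WT (95% interval -0.05 to 0.26). DHCR7, which makes cholesterol from 7-dehydrocholesterol, gave -0.01 (95% interval -0.17 to 0.15) and -0.02 (95% interval -0.18 to 0.13) for the same comparisons.

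The summed level of the 18 enzymes ranged from 2256 to 2852 CPM in cl.21 (median 2467), from 2337 to 2995 CPM in e.v. (median 2688) and from 2112 to 2936 CPM in WT (median 2371). The ranges overlapped. Beside IDI1 and HSD17B7, 3 enzymes had an unadjusted p under 0.05 for cl.21 minus e.v. and did not pass after adjustment. MVK, the mevalonate kinase, gave -0.36 (adjusted p = 0.122), LSS, which closes the sterol rings, gave -0.33 (adjusted p = 0.113), and CYP51A1, the sterol demethylase, gave 0.31 (adjusted p = 0.0937). The 10 enzymes not named so far lay between -0.21 for MSMO1, a sterol methyl oxidase, and 0.13 for FDPS, the farnesyl diphosphate synthase. These were ACAT2, PMVK, MVD and FDFT1 on the way to squalene, and TM7SF2, NSDHL, EBP and SC5D after it. Among genes outside synthesis, LPIN1 gave -0.29 (adjusted p = 0.188) and NPC1L1 gave 0.50 (adjusted p = 0.216).

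Against WT, 5 of the 30 members other than INSIG1 passed in cl.21 over 3 cultures (16.7%), where 14.4% of all genes passed: HSD17B7 and NPC1 were higher, and IDI1, ABCA1 and SOAT2 were lower, where 7.68% of all genes were higher and 6.75% lower. The 30 members had a median log2 fold change of 0.07, beside -0.01 over all genes. The 18 enzymes had a median log2 fold change of 0.03, and for 17 of them the 95% interval lay within a 1.5-fold change, HSD17B7 being the exception. NPC1, which moves cholesterol out of lysosomes, gave 29.6, 30.3 and 39.0 CPM in cl.21 in monoculture, 22.6, 22.5 and 26.4 CPM in e.v. and 15.8, 20.3 and 20.6 CPM in WT. The NPC1 libraries of cl.21 lay above both other lines there, and the lines overlapped in 2D, where cl.21 gave 27.5 to 31.2 CPM and WT gave 25.1 to 29.5 CPM. NPC1 was higher by 0.44 ± 0.10 on the log2 scale over 3 cultures (SE, adjusted p = 0.00318) and by 0.81 ± 0.18 in monoculture (adjusted p = 0.0155). The monoculture call was lost without WT library 16, without cl.21 library 24 and with only the groups compared (adjusted p up to 0.182).

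ABCA1, which exports cholesterol to apolipoprotein A-I and is induced by the oxysterol receptor LXR, averaged 8.94 ± 4.61 CPM in cl.21 (SD, n = 9), 11.2 ± 7.89 CPM in e.v. (n = 9) and 16.1 ± 9.11 CPM in WT (n = 10). Its log2 fold change for cl.21 minus WT was -0.77 ± 0.20 (SE, adjusted p = 0.00814). SOAT2, which esterifies cholesterol for export from enterocytes and hepatocytes, averaged 17.1 ± 5.86 CPM in cl.21, 19.0 ± 6.65 CPM in e.v. and 29.2 ± 10.4 CPM in WT, a log2 fold change of -0.79 ± 0.22 for cl.21 minus WT (adjusted p = 0.0168). SOAT1, its ubiquitous relative, gave 0.23 (adjusted p = 0.0615). MYLIP, a ubiquitin ligase also induced by LXR, gave 0.67 (adjusted p = 0.0522), just over the threshold.

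Within single cultures few members other than INSIG1 passed. For cl.21 minus e.v., IDI1 in co-culture was the only one (log2 fold change -0.59 ± 0.15, SE, adjusted p = 0.0457), where 1.17% of all genes passed. That IDI1 call was lost in 20 alternatives (adjusted p up to 0.216). In monoculture and 2D 0 of the 30 passed in edgeR, where 1.12% and 1% of all genes passed. At an unadjusted p under 0.05, 1 of the 30 passed in each, and DESeq2, with INSIG1 among the 31, called 1 in monoculture and 2 in 2D. For cl.21 minus WT, NPC1 in monoculture was the only one, where 2.28% of all genes passed. In co-culture and 2D 0 of the 30 passed in edgeR, where 0.926% and 1.46% of all genes passed and 5 and 4 of the 30 had an unadjusted p under 0.05. DESeq2 called 1 of 31 members, INSIG1 included in the 31, in each of these.

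The vector control was also set against unedited cells. For e.v. minus WT 10 of 31 members passed, where 14.6% of all genes passed, and 9 of the 30 without INSIG1 (30.0%). Of all genes 7.53% were higher and 7.04% lower. This comparison shares its libraries with the comparisons of cl.21 above, so their values are set side by side and not counted together. HMGCS1 (log2 fold change 0.25, adjusted p = 0.0172), MVK (0.46, adjusted p = 0.0253), and MSMO1 (0.38, adjusted p = 0.0114) were higher in e.v. The same held for STARD4, which carries sterol between membranes (0.43, adjusted p = 0.0317), LPIN1, a phosphatidate phosphatase (0.45, adjusted p = 0.0194), and MYLIP (0.75, adjusted p = 0.0271). NPC1L1, the sterol importer of the enterocyte brush border (-0.92, adjusted p = 0.00666), ABCA1 (-0.57, adjusted p = 0.0468) and SOAT2 (-0.65, adjusted p = 0.0469) were lower. The median over 31 members was 0.06, beside -0.02 over all genes.

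The same members are given for cl.21 minus WT as a description, since both comparisons share the WT libraries and the members were named for passing in the other. For cl.21 minus WT the log2 fold changes were 0.17 for HMGCS1, 0.10 for MVK, 0.18 for MSMO1, 0.18 for STARD4, 0.16 for LPIN1 and -0.42 for NPC1L1, and none of these passed the test. ABCA1 gave -0.77, SOAT2 gave -0.79 and MYLIP gave 0.67. MSMO1 in co-culture gave 215, 253 and 228 CPM in cl.21, 338, 292 and 268 CPM in e.v. and 188, 185 and 221 CPM in WT. The e.v. libraries were highest for MSMO1 there, without overlap with either other line. The count for e.v. minus WT rested on few libraries: it was 5 without e.v. co-culture library 14, 5 without e.v. monoculture library 25, 4 without e.v. 2D library 26 and 6 without WT monoculture library 19. These 4 libraries also had the highest mitochondrial share of counts of their groups, at 19.6%, 23.3%, 17.1% and 15.5%. With that share as a covariate, 10 members passed.

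**Figure D3:**
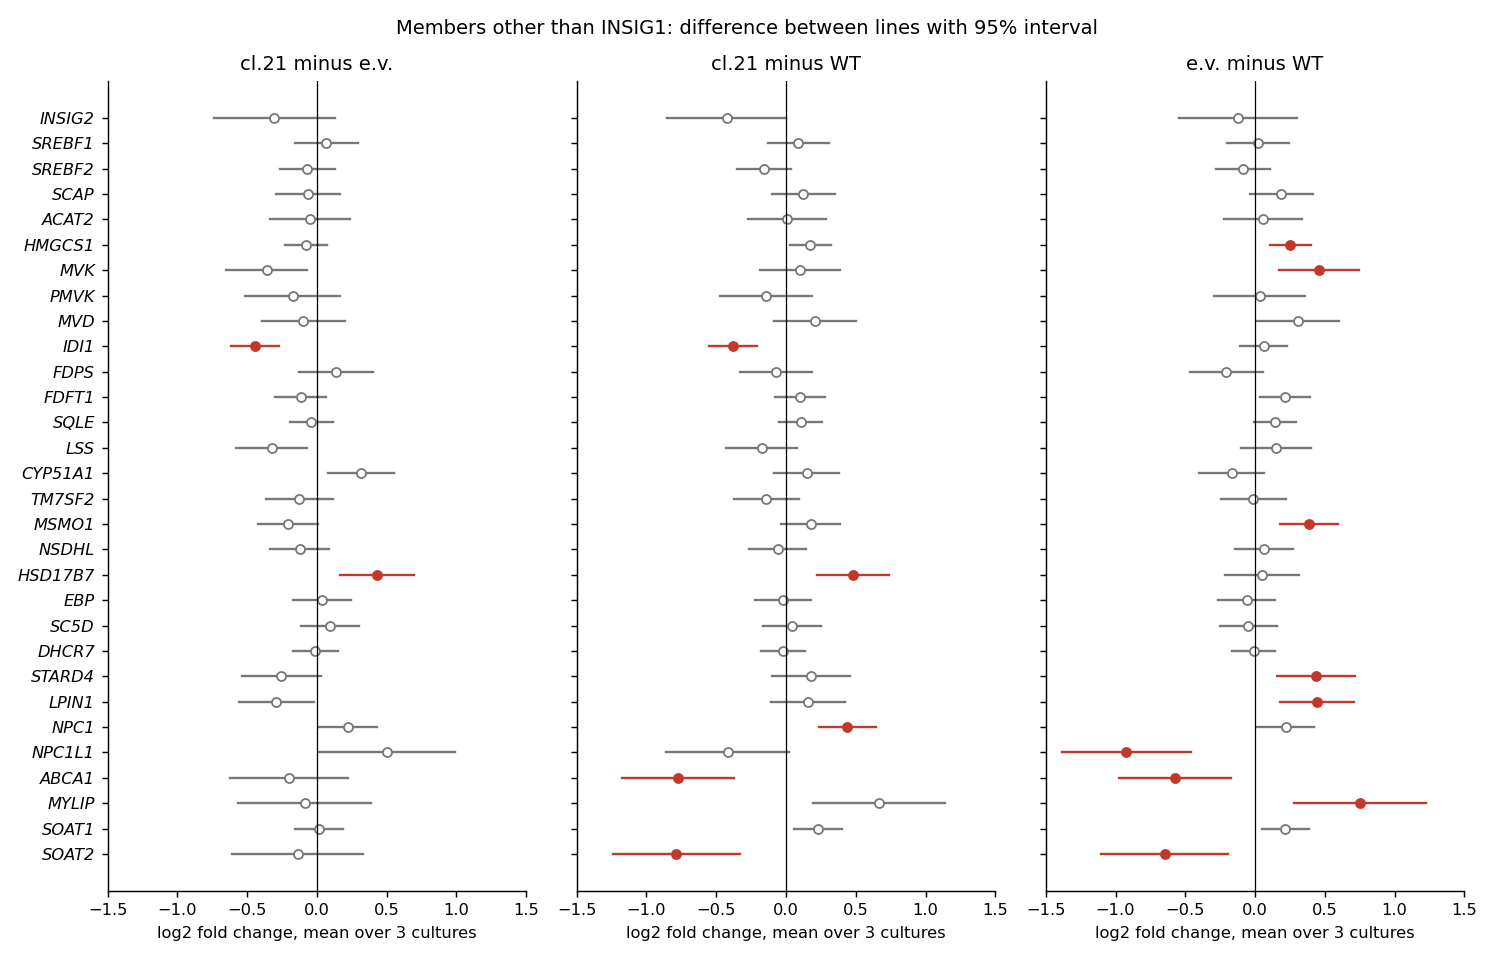
Log2 fold change (x axis) of 30 members other than INSIG1 for cl.21 minus e.v., cl.21 minus WT and e.v. minus WT, as means over 3 cultures with 95% intervals. Filled red points passed at an adjusted p under 0.05. They number 2, 5 and 9, and most enzymes lie near 0.

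Between cultures, members moved in both directions. For monoculture minus 2D over 3 lines, 12 of 31 members passed, where 44.6% of all genes passed, 21.4% higher and 23.3% lower, and INSIG1 was not among them. FDFT1, the squalene synthase (log2 fold change 0.34), MSMO1 (0.51), SC5D, a sterol desaturase (0.32), SREBF1 (0.35), STARD4 (0.94) and MYLIP (1.72) were higher in monoculture. SREBF2 (-0.31), PMVK, the phosphomevalonate kinase (-0.55), FDPS (-0.65), LSS (-1.10), EBP, a sterol isomerase (-0.27), and ABCA1 (-1.28) were lower. Adjusted p values ran from 4.79e-08 for LSS to 0.0299 for EBP. The median of 31 members was -0.07, beside -0.01 over all genes, and 9 members were higher and 9 lower in all 3 lines. The share of all genes on the same side in all 3 lines was not counted, so these counts are given without a reading.

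LSS gave 15.8, 21.7 and 19.7 CPM in monoculture and 36.8, 39.8 and 42.5 CPM in 2D in cl.21. In e.v. LSS gave 16.8, 21.1 and 27.1 CPM in monoculture and 44.6, 60.1 and 53.6 CPM in 2D. In WT it gave 21.4, 17.9 and 23.2 CPM in monoculture and 51.4, 37.2, 33.7 and 36.3 CPM in 2D. No monoculture library reached the lowest 2D library of its line. LSS passed within each line, at -1.07 ± 0.21 in cl.21, -1.30 ± 0.21 in e.v. and -0.94 ± 0.20 in WT (SE, adjusted p = 0.000817, 9.72e-05 and 0.00216).

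STARD4 moved the other way. It gave 133, 98.3 and 118 CPM in monoculture and 56.9, 45.0 and 49.5 CPM in 2D in cl.21, and 85.8, 141 and 146 CPM in monoculture and 48.7, 73.9 and 48.1 CPM in 2D in e.v. In WT STARD4 gave 62.5, 74.7 and 113 CPM in monoculture and 76.5, 49.6, 52.8 and 53.6 CPM in 2D. The cultures did not overlap in cl.21 and e.v. and overlapped in WT. The log2 fold change was 1.21 ± 0.24 in cl.21 (SE, adjusted p = 0.000872), 1.11 ± 0.24 in e.v. (adjusted p = 0.00182) and 0.50 ± 0.23 in WT (adjusted p = 0.143). The difference between cl.21 and WT in this change was 0.71 (unadjusted p = 0.0425, adjusted p = 1.00).

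MYLIP and ABCA1, both listed as LXR targets, moved in opposite directions. MYLIP gave 114, 79.3 and 132 CPM in monoculture and 20.2, 26.9 and 28.0 CPM in 2D in cl.21, a log2 fold change of 2.12 ± 0.41 (SE, adjusted p = 0.000655). It gave 38.6, 109 and 149 CPM in monoculture and 28.3, 40.2 and 32.4 CPM in 2D in e.v., and 20.2, 99.1 and 60.3 CPM in monoculture and 18.2, 25.6, 19.3 and 19.6 CPM in 2D in WT. Library 11 of e.v. and library 16 of WT were low for MYLIP among the monocultures, and these also had the lowest mitochondrial share of their groups, at 8.52% and 6.36%. With that share as a covariate the MYLIP change over 3 lines was 1.28, against 1.72 without it, and it still passed. The MYLIP call within e.v. was lost without library 25 (adjusted p = 0.0692), and within WT without library 19 (adjusted p = 0.131). ABCA1 gave 7.395, 6.25 and 8.44 CPM in monoculture and 15.8, 17.5 and 8.68 CPM in 2D in cl.21, and 7.87, 6.02 and 3.77 CPM in monoculture and 14.3, 21.7 and 26.4 CPM in 2D in e.v. In WT ABCA1 gave 12.9, 12.5 and 8.55 CPM in monoculture and 27.1, 21.1, 36.1 and 11.0 CPM in 2D. ABCA1 passed in e.v. (-1.82, adjusted p = 0.000450) and WT (-1.09, adjusted p = 0.0163) and missed in cl.21 (-0.92, adjusted p = 0.0525). The ABCA1 call in WT was lost without 2D library 12, without monoculture library 29 and with only the groups compared (adjusted p up to 0.0950).

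**Figure D4:**
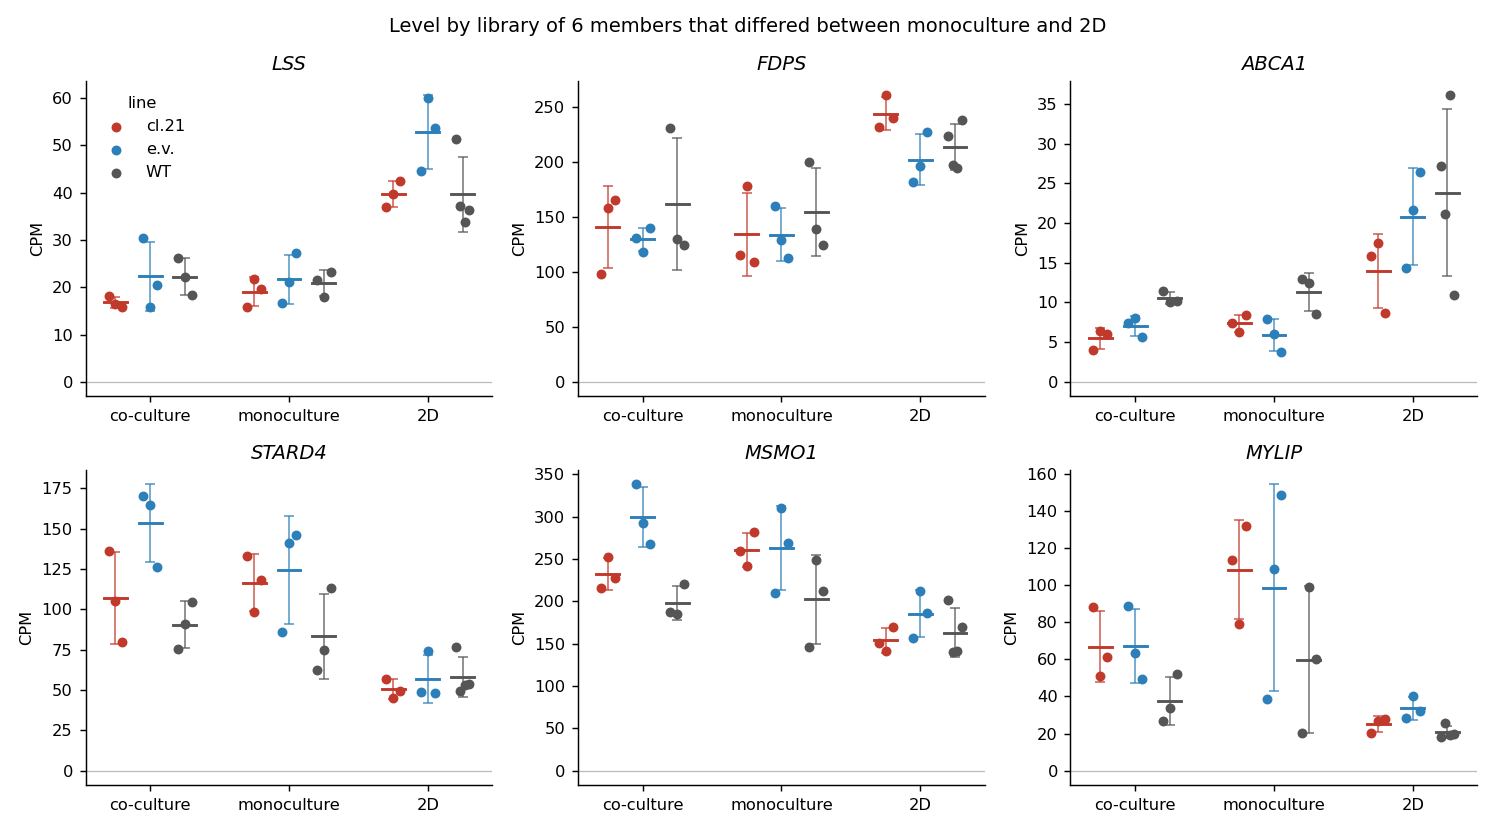
Level in CPM by culture (x axis) of LSS, FDPS, ABCA1, STARD4, MSMO1 and MYLIP in cl.21, e.v. and WT, with libraries as points, means as bars and SD as error bars (n = 3, and 4 for WT in 2D). LSS averaged 20.5 CPM over monocultures and 43.6 CPM in 2D, and MYLIP averaged 89.0 CPM over monocultures and 25.9 CPM in 2D.

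FDPS averaged 141 ± 31.6 CPM in monoculture (SD, n = 9) and 219 ± 25.1 CPM in 2D (n = 10), and MSMO1 averaged 242 ± 48.0 CPM in monoculture and 167 ± 26.0 CPM in 2D. By line, 8 members passed in cl.21, 4 in e.v. and 4 in WT, where 20.1%, 21.6% and 14.8% of all genes passed. SREBF1, PMVK, FDPS, LSS, MSMO1, EBP, STARD4 and MYLIP passed in cl.21. LSS, STARD4, ABCA1 and MYLIP passed in e.v., and LSS, NPC1 (-0.58, adjusted p = 0.0184), ABCA1 and MYLIP passed in WT. The difference in this change between lines was tested for cl.21 against e.v. and against WT: 0 members and 0 genes passed in edgeR, and DESeq2 called 0 members in either. At an unadjusted p under 0.05 there were 0 members against e.v. and 3 against WT (NPC1, STARD4 and PMVK). The mitochondrial share of counts was 6.36 to 23.3% in monoculture and 4.49 to 17.1% in 2D. With that share as a covariate EBP no longer passed (-0.14, adjusted p = 0.189) and the other 11 did. SREBF1 over 3 lines no longer passed with no filter on low counts (adjusted p = 0.0754). Within cl.21 the calls of SREBF1, EBP and PMVK were lost in 5, 4 and 2 alternatives (adjusted p up to 0.209, 0.121 and 0.115), each time including those without 2D library 2 and without monoculture library 24. The NPC1 call in WT was lost without monoculture library 16 and with no filter (adjusted p up to 0.108).

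**Figure D5:**
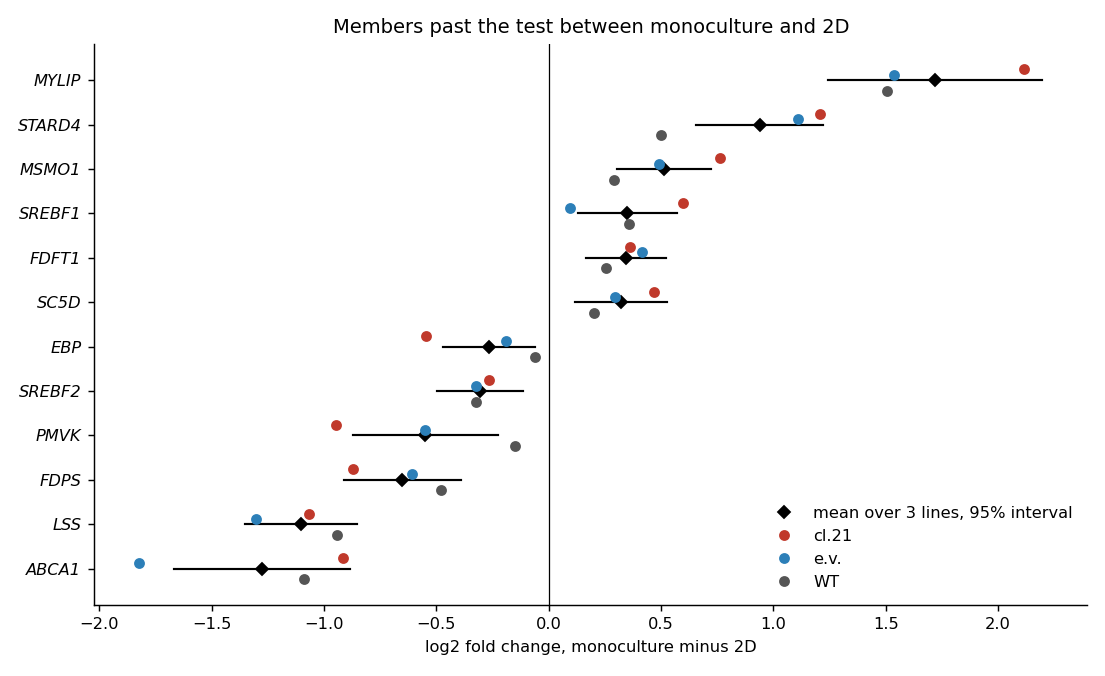
Log2 fold change (x axis) for monoculture minus 2D of the 12 members that passed, with the mean over 3 lines and its 95% interval in black and each line as a coloured point. The signs agree in the 3 lines for all 12, from -1.28 for ABCA1 to 1.72 for MYLIP.

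No member passed for the presence of bacteria. For co-culture minus monoculture over 3 lines 0 of 31 members passed in edgeR, where 1.99% of all genes passed, and DESeq2 called 0. At an unadjusted p under 0.05, 6 members passed: CYP51A1 (0.29), NSDHL, a sterol dehydrogenase (0.26), and HSD17B7 (0.32) were positive, and SREBF2 (-0.20), LPIN1 (-0.35) and MYLIP (-0.62) were negative. The share of all genes at that threshold was not counted, so these 6 are listed without a reading. The 18 enzymes had a median log2 fold change of 0.05 and a range of -0.15 to 0.32, and 17 of their 95% intervals lay within a 1.5-fold change. HMGCS1 averaged 554 ± 69.2 CPM in co-culture (SD, n = 9) and 516 ± 44.7 CPM in monoculture (n = 9). Within each line 0 genes (0%) passed in edgeR, with 1 member in cl.21, 0 in e.v. and 1 in WT at an unadjusted p under 0.05, and DESeq2 called 0 members. The difference between cl.21 and e.v. in the change with bacteria passed for 0 members in edgeR and DESeq2, with 0 at an unadjusted p under 0.05.

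Other genes of sterol and lipid metabolism were read from 6 further lists. Their counts for cl.21 minus e.v. stand beside 4.5% of all genes higher and 4.25% lower. For cl.21 minus e.v., 1 of 10 further SREBP targets was higher (GPAM, 0.56, which starts glycerolipid synthesis) and 1 was lower (CYB5R3, -0.39, a reductase that feeds sterol enzymes). Of 9 fatty acid synthesis genes 1 was higher, FADS2 (1.16), a fatty acid desaturase. Of 13 genes of SREBP processing and INSIG turnover 1 was higher, VCP (0.50), the ATPase that draws proteins from the endoplasmic reticulum for degradation. For 10 isoprenoid genes, 6 tested LXR and oxysterol genes and 10 uptake and trafficking genes 0 passed in edgeR, with 2, 0 and 1 at an unadjusted p under 0.05.

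FADS2 separated all 3 lines, at 11.7 ± 2.46 CPM in cl.21 (SD, n = 9), 5.19 ± 1.04 CPM in e.v. (n = 9) and 42.7 ± 7.61 CPM in WT (n = 10). For e.v. minus WT its log2 fold change was -3.01 and for cl.21 minus WT it was -1.85. The ranges did not overlap between cl.21 (7.21 to 14.6 CPM), e.v. (2.83 to 6.34 CPM) and WT (33.2 to 53.9 CPM). Against WT, the further SREBP targets had 1 higher (GPAM, 0.50) and 2 lower (ALDOC, -1.39, and CYB5R3, -0.41) in cl.21, and fatty acid synthesis had 2 lower (FADS2 and FADS1, -0.24). SREBP processing had 2 lower (UBE2G2, -0.46, and SEC23A, -0.38), isoprenoid genes had 2 lower (FNTB, -0.40, and PDSS2, -0.35) and uptake had 1 lower (SCARB1, -0.31). These list counts against WT stand beside 7.68% of all genes higher and 6.75% lower.

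Between monoculture and 2D the fatty acid genes had 1 of 9 higher and 4 lower, with ELOVL6 (-1.42), FASN (-0.78) and ACACA (-0.43) among the lower. These counts, and those of the lists that follow, stand beside 21.4% of all genes higher and 23.3% lower. Of the further SREBP targets 2 of 10 were higher and 3 lower, with PNPLA3 at -0.87 and GPAM at -0.82. Of SREBP processing genes 1 of 13 was higher, SPRING1 (0.95), which licenses the protease that cuts SREBP, and 3 were lower. GRAMD1B, which moves cholesterol from the plasma membrane, gave -2.72 and RXRA, the partner of LXR, gave -1.34. Of the 6 LXR and oxysterol genes tested 3 were lower, and of 10 uptake and trafficking genes 3 were higher and 3 lower. Isoprenoid genes had 2 of 10 higher and 1 lower. For co-culture minus monoculture 1 gene of all these lists passed, RNF139 (-0.45), a ubiquitin ligase of the endoplasmic reticulum. Of all genes 1.99% passed there.

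Markers of the cell type were read beside these results. All 10 epithelial markers averaged at least 1 CPM, and their sum ranged from 3012 to 4805 CPM in cl.21, 3746 to 6438 CPM in e.v. and 3767 to 6476 CPM in WT. For cl.21 minus e.v. 2 of 10 epithelial markers were higher (SI, 1.07, adjusted p = 0.00126, and ALPI, 0.75, adjusted p = 0.0201) and 1 was lower (CDH1, -0.35, adjusted p = 0.0233). For cl.21 minus WT 0 were higher and 3 were lower (KRT20, -2.08, adjusted p = 0.00540, FABP1, -1.29, adjusted p = 0.000683, and CDH1, -0.34, adjusted p = 0.0177). For e.v. minus WT 0 were higher and 3 were lower (SI, -1.06, CDX2, -0.57, and ALPI, -0.61). The others did not pass, EPCAM, VIL1, KRT8 and KRT18 among them in all 3 comparisons. Of all genes 4.5% were higher and 4.25% lower for cl.21 minus e.v. Against WT, 7.68% were higher and 6.75% lower in cl.21, and 7.53% and 7.04% in e.v. Among the immune markers CD14, LYZ and CSF1R averaged at least 1 CPM, and PTPRC and CD3E averaged under 1 CPM. Among the fibroblast and endothelial markers COL1A1, COL3A1, PDGFRB and PECAM1 averaged at least 1 CPM, and DCN and VWF averaged under 1 CPM. The 5 goblet and enteroendocrine markers all averaged under 1 CPM. The summed immune markers, with LYZ the most abundant, ranged from 9.05 to 27.0 CPM in cl.21, 28.5 to 51.4 CPM in e.v. and 12.2 to 24.4 CPM in WT. The summed fibroblast and endothelial markers, with COL1A1 the most abundant, ranged from 43.3 to 59.7 CPM in cl.21, 28.5 to 53.6 CPM in e.v. and 24.7 to 54.8 CPM in WT. The part of these genes in the member differences was not tested. HIF1A mRNA was lower in cl.21 than in e.v. (-0.71, adjusted p = 5.12e-05) and higher in e.v. than in WT (0.40, adjusted p = 0.00923). Over 3 cultures cl.21 minus WT did not pass (-0.30, adjusted p = 0.0511). Within single cultures cl.21 was called lower than e.v. and WT in 2D alone (-0.89 and -0.75, adjusted p = 0.00972 and 0.0233). By RT-PCR, in a separate experiment with the prolyl hydroxylase inhibitor DMOG, the paper found no significant difference in HIF1A mRNA between HIF1A-null and vector control cells. In a luciferase reporter of hypoxia response elements it found the response to DMOG almost lost in HIF1A-null cells. A 3′ read does not reach the guide site, so it does not check the edit.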

How the data were processed

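RNA of Caco-2 cells was profiled in 32 libraries by 3′ mRNA sequencing. The authors deposited 1 table of raw counts per gene, mapped to GRCh38, with 60107 gene rows, 30677 of them with at least 1 count. The aligner, the counter, the annotation and the strand setting were not given in the sources used here. Overlapping antisense genes cannot be told apart where strand was ignored. Gene names came from an Ensembl name table (56104 rows) and GENCODE release 29 (427 further rows), which also gave gene positions and the 5 genes on each side of INSIG1. All columns belonged to the series.

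Libraries were grouped by their labels. Counts per library ranged from 4144373 to 6686797 (median 4917010). Replicates of 1 group differed by more than counting noise (lowest chi-square per degree of freedom 3.77), so none was taken as a duplicate. CPM is counts per 1000000 after TMM scaling over 32 libraries. Tests used edgeR 4.0.16 quasi-likelihood (R 4.3.3, limma 3.58.1) with TMM and a filter on low counts by group, in 1 fit of 28 libraries in 9 groups without covariates, with 12849 genes, 19 residual degrees of freedom and a biological coefficient of variation of 0.201. All tests were two-sided. Adjustment followed Benjamini-Hochberg over all genes tested, with a threshold of 0.05. Log2 fold changes over lines or cultures are unweighted means of the group contrasts. The 4 single libraries were described only. The fit was tested on simulated counts before use.

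Alternatives were DESeq2 1.42.0, upper-quartile factors, no filter on low counts, only the groups compared, each library left out in turn and, chosen after seeing the data, the mitochondrial share as a covariate. Members past the test were named with values and others by range and count; in other lists up to 3 genes past the test with the smallest adjusted p were named. The members and lists were chosen with earlier results of these data known, so no p was adjusted over a list. Shares of all genes were counted at the adjusted threshold alone, so counts at an unadjusted p have no such share beside them. Promoter windows came from RefSeq on GRCh38.p14. Tables and figures used Python 3.11.15, pandas 2.3.3, numpy 2.4.6 and matplotlib 3.10.9. One immune marker is not reported here.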

Additional observations from a re-analysis of the deposited data

Results flagged for a closer look

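Among the 31 members tested, 2 values stood far from the other libraries of their group; groups of 4 were examined, and chance alone marks about 1 in 20 groups. ACAT2, which makes acetoacetyl-CoA, was low in WT 2D library 12 at 211.2 CPM, against 279.5, 280.4 and 293.3 CPM in the other 3. This library also had the highest mitochondrial share of the WT 2D group, at 14.1%. STARD4 was high in WT 2D library 5 at 76.5 CPM, against 49.6, 52.8 and 53.6 CPM in the other 3.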

How the results depend on the processing

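No paired analysis was possible because the labels number every library separately, so no number is shared between groups. Counts of members here include INSIG1. It passed for cl.21 minus e.v. and cl.21 minus WT under every alternative, so it adds 1 to each of those counts. As INSIG1 was chosen by its level in cl.21, that 1 is no result of a test. No member value changed its sign past the test under any alternative. The count of members for co-culture minus monoculture over 3 lines was 0, and became 1 with no filter on low counts and 2 with the mitochondrial share as a covariate. For cl.21 minus e.v. the count in 2D was 1, and 2 with DESeq2 and with only the groups compared, and the count in co-culture was 2, and 1 with upper-quartile factors, no filter or only the groups compared. For cl.21 minus WT the count was 2 in 2D and 2 in co-culture with no filter, where it was 1 otherwise, and in monoculture it was 2, became 4 with no filter and 1 with only the groups compared. Leaving out 1 library gave 2 to 3 members for cl.21 minus e.v., 6 to 8 for cl.21 minus WT and 4 to 11 for e.v. minus WT over 3 cultures. It gave 11 to 13 for monoculture minus 2D over 3 lines, and 5 to 9 in cl.21, 3 to 8 in e.v. and 3 to 4 in WT. It gave 1 to 2 for cl.21 minus e.v. in co-culture and 1 to 3 for cl.21 minus WT in monoculture. For monoculture minus 2D in cl.21 the count was 5 without 2D library 2 or without monoculture library 24. For monoculture minus 2D in e.v. it was 8 without monoculture library 11. For cl.21 minus WT over 3 cultures, 6 members passed in the main fit, and every other fit of whole groups called more. DESeq2 called 9, no filter 8, the mitochondrial share as a covariate 8, upper-quartile factors 7 and only the groups compared 7. The share of all genes was counted for the main fit alone, so these counts have none beside them. The cause of these shifts was not tested. The 63 single-gene results followed were the 55 past the threshold, INSIG1 in cl.21 among them, and a few chosen besides. These few were HMGCS1, SQLE, LSS and STARD4 for cl.21 minus e.v. and cl.21 minus WT over 3 cultures. The 55 is therefore set by the choice and is not a rate of passing. For e.v. minus WT the calls of ABCA1, SOAT2 and STARD4 were lost in 21, 19 and 10 alternatives. Adjusted p reached 0.115, 0.119 and 0.0963. Those of MVK and MYLIP were lost in 5 and 4 (up to 0.0717 and 0.0867). That of LPIN1 was lost without e.v. 2D library 26 (0.0549), and that of HMGCS1 with no filter (0.160). The call of EBP for monoculture minus 2D over 3 lines was lost in 10 (up to 0.189). ABCG1 and INSIG1 in cl.21 had too few counts for a finer comparison at this depth.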
